A study of Mus musculus with 6 samples.

Results

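Ileal bile-acid-handling enterocytes were taken as the cell barcodes with at least 1 molecule (UMI) of 3 or more of the 6 genes *Fabp6*, *Tmigd1*, *Slc10a2*, *Slc51a*, *Slc51b* and *Slc13a1*. This gate picked 372 of 4890 kept barcodes (7.61%), where barcodes were kept at 300 or more detected genes and a mitochondrial share of counts up to 25%. The cells came from crypts of the small intestine, freshly isolated from untreated C57BL6 mice aged 10 weeks and profiled by Drop-seq, which tags the polyadenylated RNA of single cells in droplets. Knockout mice had *Ptger4*, the gene of the prostaglandin E2 receptor EP4, ablated in epithelial cells, and flox mice carried the floxed gene without that ablation. Each genotype had 3 droplet collections from 2 biological replicates, and the codes were read as collections 1 and 2 sharing replicate 1, with collection 3 as replicate 2. The sources used here name neither the Cre driver nor the exons of *Ptger4* that were removed, nor the segment of intestine. Knockout collections 1 to 3 held 63, 50 and 79 of the 372 cells, and flox collections 1 to 3 held 78, 37 and 65.

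Bile acids are made in the liver, secreted into the duodenum and reclaimed mainly in the terminal ileum. There the sodium-dependent transporter ASBT (*Slc10a2*) takes them up at the apical membrane, the binding protein *Fabp6* carries them through the cytosol, and the heteromer of *Slc51a* and *Slc51b* exports them at the basolateral side. The nuclear receptor FXR (*Nr1h4*) senses bile acids in these cells and drives *Fabp6*, both *Slc51* genes, the co-repressor gene *Nr0b2* and the hormone gene *Fgf15*. *Slc13a1* encodes a sodium-sulfate cotransporter, and *Tmigd1* encodes an epithelial adhesion molecule of the brush border. Proximal enterocytes, by contrast, package dietary fat into lipoproteins, and they were gated in the same way on 3 or more of *Apoa4*, *Apoc3*, *Rbp2*, *Lct*, *Creb3l3*, *Adh6a* and *Guca2b*.

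The promoters of 3 gate genes are shown because the letters in capitals resemble elements known from bile acid genes. They are 300 bases long (250 before to 50 after the start), 5′ to 3′ on the gene's strand, from RefSeq on GRCm38.p6. *Fabp6* lies at chr11:43601513-43601812 on the minus strand and *Slc51b* at chr9:65422724-65423023 on the minus strand. Both are marked for GGTNA, any base and TNACC, an inverted repeat with a single spacer base of the kind bound by FXR. *Slc10a2* lies at chr8:5105238-5105537 on the minus strand and is marked for GTTAAT, any base and ATTA, a motif of the HNF1 type. All motifs were read on both strands.
Fabp6: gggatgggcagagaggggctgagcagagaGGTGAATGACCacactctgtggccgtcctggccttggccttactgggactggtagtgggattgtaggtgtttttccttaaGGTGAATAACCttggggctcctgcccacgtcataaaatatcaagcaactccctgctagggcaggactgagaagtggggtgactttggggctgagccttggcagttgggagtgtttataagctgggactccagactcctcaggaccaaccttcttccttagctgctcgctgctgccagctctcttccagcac
Slc51b: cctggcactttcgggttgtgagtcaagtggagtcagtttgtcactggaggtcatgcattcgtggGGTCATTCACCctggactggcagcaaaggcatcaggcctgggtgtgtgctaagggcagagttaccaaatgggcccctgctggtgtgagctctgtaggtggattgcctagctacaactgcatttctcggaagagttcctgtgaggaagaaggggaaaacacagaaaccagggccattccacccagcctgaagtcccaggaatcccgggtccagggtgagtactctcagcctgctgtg
Slc10a2: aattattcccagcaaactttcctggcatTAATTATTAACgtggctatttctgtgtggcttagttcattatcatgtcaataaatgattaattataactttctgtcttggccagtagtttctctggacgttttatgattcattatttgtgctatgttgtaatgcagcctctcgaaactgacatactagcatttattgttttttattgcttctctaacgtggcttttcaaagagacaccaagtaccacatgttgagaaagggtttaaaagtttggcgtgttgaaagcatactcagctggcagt
The inverted repeat matched at 2 places in the *Fabp6* promoter, starting 221 and 141 bases before the start, and at 1 place in that of *Slc51b*, 186 bases before it. Of all 32851 promoters of this length, 86 (0.262%) held the inverted repeat on either strand and 46 (0.14%) held the HNF1-type motif. The letters were relaxed after the strict form (GGTCA, any base and TGACC) had given no match in these promoters, and 13 of all promoters held that form. Neither motif matched in the windows of *Slc51a* or *Tmigd1*. A match is a run of letters and says nothing of binding in these cells.

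The gate genes chose the cells, so their values are given without a test. *Fabp6* had a UMI in 358 of 372 members (96.2%, 95% exact Clopper-Pearson interval 93.8 to 97.9), *Slc51a* in 330 (88.7%) and *Slc51b* in 320 (86.0%). *Slc13a1* was counted in 164 members (44.1%), *Tmigd1* in 97 (26.1%) and *Slc10a2* in 53 (14.2%). A group of 142 members (38.2%) passed on *Fabp6*, *Slc51a* and *Slc51b* alone, and 230 (61.8%) held *Tmigd1*, *Slc10a2* or *Slc13a1*. The *Slc51* genes were not particular to the members, since 47.7% of the 222 cells that passed the proximal gate alone held *Slc51a* and 34.2% held *Slc51b*. *Slc10a2* was seen in 0 of those 222 cells and in 4 of the 4296 cells that passed neither gate. Intervals and floors here and below cover counting error only.

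*Fabp6* RNA was also found outside enterocytes. Among 125 T or NK cells (3 or more of the markers fixed for them) that passed neither gate, 25 (20%) held a *Fabp6* UMI at a median depth of 836 counts, with a summed level of 717 CPM (counts scaled to 1000000 per sum). After each cell was thinned to 1000 UMIs, 78.1% of 329 members and 29.3% of 41 such T or NK cells held one. *Fabp6* took a median of 1.32% of a member's counts, with quartiles at 0.107% and 4.23% and a maximum of 15.04%. In 119 members (32.0%) it took at most 0.2%, in 55 (14.8%) it took more than 0.2% and up to 1%, and in 198 (53.2%) it took more than 1%. The T or NK level of 717 CPM lies within the first of these ranges. That group left out gated cells, and all 136 T or NK cells together, gated ones included, had 2536 CPM, which lies within the second range. They held 1057 *Fabp6* UMIs, of which 105 were in the 125 cells of neither gate. The level of 2536 CPM thus rests mainly on barcodes that the gates chose and is not a background measured apart from them. Only the range above 1% was above both levels. These 3 ranges held 31.8%, 15.1% and 53.1% of 192 knockout members and 32.2%, 14.4% and 53.3% of 180 flox members.

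**Figure D1:**
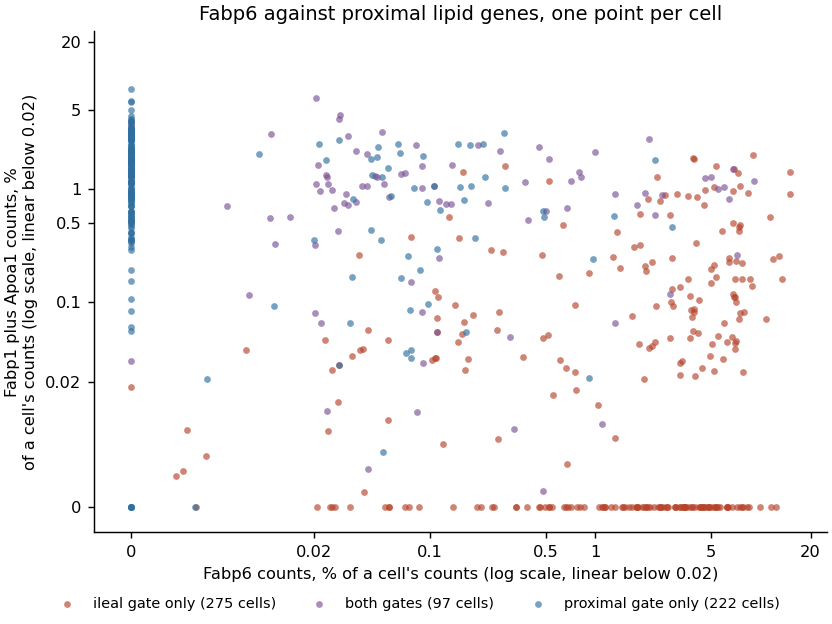
Each point is 1 cell, with the share of its counts on *Fabp6* on the x axis and on *Fabp1* plus *Apoa1* on the y axis, both in percent on log scales that are linear below 0.02. Most of the 275 cells of the ileal gate alone lie above 1% *Fabp6*, most of the 222 cells of the proximal gate alone lie at 0, and the 97 cells of both gates lie mainly at high *Fabp1* plus *Apoa1*.

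Some genes that the gate did not use rose with *Fabp6* across the members and others did not. The values are a description of picked genes. *Nr1h4* (FXR) averaged 110, 136 and 255 CPM in the low, middle and high *Fabp6* ranges (SD over 4 biological replicates 31.6, 36.9 and 44.9). *Mgat4c*, which encodes a glycosyltransferase of N-glycan branching, averaged 180, 330 and 707 CPM (SD 69.6, 95.1 and 37.6). *Saa1*, a serum amyloid A of the acute phase that is also made by ileal epithelium, had 0 counts in the low range, 2 in the middle range and 65 in the high range. *Slc40a1* (ferroportin, the iron exporter) had 10, 12 and 55 counts in the same order. *Krt20*, a keratin of differentiated enterocytes, averaged 735, 709 and 1293 CPM (SD 150, 113 and 214). *Maf*, a transcription factor, averaged 362, 226 and 579 CPM, and *Ccnd1* (cyclin D1) averaged 290, 488 and 253 CPM, so neither rose in order.
The low range held more *Fabp1* and *Mki67* RNA than the range above 1%, but goblet RNA was highest in the middle range. The goblet gene *Zg16* averaged 1541, 5629 and 1799 CPM (SD 1083, 4103 and 879). *Tff3*, another goblet gene, averaged 2117, 5598 and 2533 CPM (SD 1226, 3847 and 1499). At least 3 goblet markers were found in 49.6%, 52.7% and 33.3% of the cells of the 3 ranges, and at least 3 cycling markers in 27.7%, 32.7% and 5.05%. *Fabp1*, the liver-type fatty acid binding protein of the proximal gut, averaged 1330, 88.9 and 21.0 CPM (SD 1156, 88.9 and 13.8), with the largest values in both first replicates. *Mki67*, a nuclear protein of dividing cells, averaged 332, 320 and 101.2 CPM (SD 130, 82.3 and 51.8). The proximal gate was also passed by 54.6%, 27.3% and 8.59% of the cells of the 3 ranges, whose median depths were 5666, 4021 and 2550.5 counts. At least 3 stem markers were found in 12.6%, 1.82% and 0% of them. The part of depth and of RNA from other cells in these differences was not tested.

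**Figure D2:**
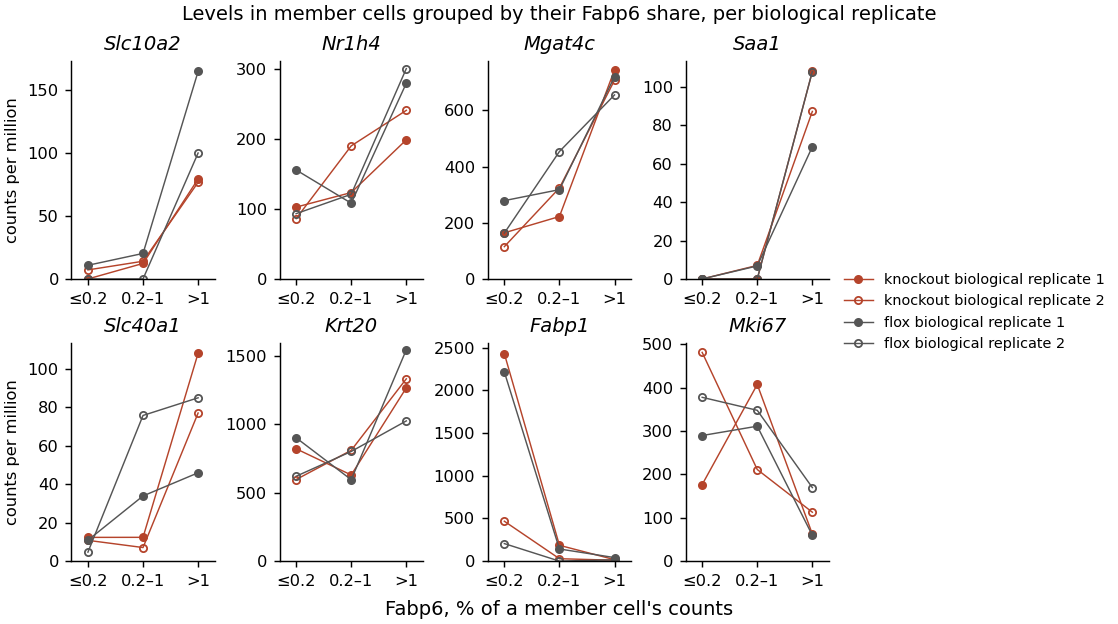
Levels in CPM (y axis, from 0) of 8 genes in members grouped by the share of their counts on *Fabp6* (x axis), with 1 line per biological replicate, knockout in red and flox in grey. *Slc10a2*, *Nr1h4*, *Mgat4c* and *Saa1* are highest above 1% *Fabp6* in all 4 replicates, and *Fabp1* is highest at or below 0.2% in all 4.

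At the edge of the gate, the 229 members with exactly 3 gate genes had a median of 3251 counts and a summed *Fabp6* level of 7312 CPM, and 27.1% of them passed the proximal gate. The 492 cells just outside, with exactly 2 gate genes, had a median of 2301 counts and 4137 CPM of *Fabp6*, and 16.3% passed the proximal gate. The 33 and 15 members with 5 and 6 gate genes had 57645 and 53496 CPM. All members had a median of 3549 counts, against 1274.5 in all kept cells, so the gate favoured deep barcodes. The largest member held 104905 counts, which is 25.6% of the member counts of flox collection 3.

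Other features of the libraries bear on the members as follows. Total counts were 1228337 to 3146909 per collection. *Xist* was counted 234 and 192 times in the members of knockout collection 3 and flox collection 3, and 0 times in those of the other 4 collections, so sex differed between the biological replicates of each genotype and is part of the spread between them. Pairs of collections shared 9 to 28 cell barcodes within each of 2 sets and 0 to 2 between the sets. Set A was knockout collection 1 with flox collections 1 and 2, and set B was knockout collections 2 and 3 with flox collection 3. A barcode shared with another collection was carried by 44 members and 133 kept cells. At least 3 markers of enterocytes were present in 89.2% of members, of goblet cells in 41.4%, of Paneth cells in 49.2%, of cycling cells in 16.4%, of stem cells in 4.30%, of T or NK cells in 2.69% and of B or plasma cells in 0.806%. In the cells of neither gate, at least 3 Paneth markers were present in 36.0%.

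The next comparison set the 275 cells of the ileal gate alone against the 222 of the proximal gate alone, with counts summed in each of the 4 biological replicates and the 13 gate genes removed. Fat, sugar and drug-handling genes of the proximal gut were lower in ileal cells. The largest higher changes of the naming rule were those of *Cldn2*, *Cd9*, *Scd2* and *Tspan1*, and *Nr1h4* and *Mgat4c* were higher by smaller amounts. Of 4390 genes tested, 409 passed (edgeR's quasi-likelihood test, adjusted p under 0.05), which is 9.32%, with 119 (2.71%) higher and 290 (6.61%) lower in ileal cells. Genes scarce in either cell group could pass the filter on low counts through the sums of the other group alone. The direction of such a gene was then fixed, as for *Cldn2*, which was scarce in proximal cells. The number of such calls, also within the lists below, was not counted. Since the gates chose the cells, genes that vary together with the gate genes had to differ, and the calls describe the selected cells in these replicates. The count was 621 (241 higher, 380 lower) without the barcodes shared between collections, 206 with DESeq2 and 172 (32 higher, 140 lower) without flox biological replicate 2, which is flox collection 3. Ileal sums held 301200 and 410381 counts in knockout replicates 1 and 2 and 382194 and 251981 in flox replicates 1 and 2, and proximal sums held 202343, 75335, 148465 and 192418 in the same order.

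The list of bile acid handling holds 4 gate genes, which were removed before the test. All had higher CPM in ileal than in proximal cells, a direction that the gate favours by its construction. Of the 5 genes tested, that of FXR was the only one called higher. *Nr1h4* had 173 and 166 CPM in ileal cells of knockout replicates 1 and 2 and 220 and 222 CPM in those of flox replicates 1 and 2, against 59.3, 53.1, 74.1 and 98.7 CPM in proximal cells in the same order. The groups did not overlap, with a log2 fold change of 1.46 (SE 0.23, edgeR adjusted p = 0.00041). The level in cells of neither gate was 66.5 CPM. *Abcc2*, an exporter of conjugates at the apical membrane, fell to 29.3 ± 10.6 CPM in ileal cells, against 105 ± 11.2 in proximal cells (SD, n = 4). *Abcg8*, a partner in sterol export, fell to 52.6 ± 23.8 CPM, against 130 ± 37.97 in proximal cells, (SD, n = 4), and lost the call in 13 of 26 alternatives. *Nr1i2*, the receptor PXR, had 55.4 ± 12.1 CPM in ileal and 81.0 ± 30.6 CPM in proximal cells and did not pass (edgeR adjusted p = 0.358).
The FXR target *Fgf15* had 6 counts in 6 of 275 ileal cells and 11 counts in 7 of 222 proximal cells. *Nr0b2* had 1 count in ileal and 0 in proximal cells, and the membrane bile acid receptor gene *Gpbar1* had 0 in both. These genes were too sparse to test, and a difference in them was not detectable at this depth.

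Other genes higher in ileal cells had roles in the membrane, iron export and defence. *Mgat4c* had 415, 363, 523 and 548 CPM in ileal cells of knockout replicates 1 and 2 and flox replicates 1 and 2, against 153, 199, 115 and 223 CPM in proximal cells. This was a log2 difference of 1.48 with an SE of 0.21 (edgeR adjusted p = 0.000122), and neither-gate cells had 73.3 CPM. *Slc40a1* had 70 counts in ileal and 1 count in proximal cells, a ratio of CPM of 32.2 with a counting interval of 5.59 to 1289. *Saa1* had 66 counts in ileal and 0 in proximal cells and was at least 10.1-fold higher against a floor of 3 counts over the proximal cells. Both genes entered the test through the ileal sums alone, so their calls had to fall on the higher side, and they are given as counts without a p. Both genes were present in all 4 ileal sums, at 41.9 to 67.5 CPM for *Slc40a1* and 41.4 to 63.1 CPM for *Saa1*. *Duoxa2*, which matures the hydrogen peroxide producing enzyme DUOX2, had 149 ± 13.2 CPM in ileal and 57.3 ± 32.2 CPM in proximal cells, with 59.6 CPM in neither-gate cells.

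The higher genes were also set against the crypt cells of neither gate. Of the 119, 26 had an ileal level at least 1.5 times that of neither-gate cells, and the median ratio was 0.937. Of the 290 lower genes, 153 had such a level, at a median ratio of 1.55. A ratio of 1 over 1.5 or less was found in 2 of the 119 and 16 of the 290. The share over all genes tested was not computed. *Cldn2*, a claudin of leaky tight junctions, had 96.5 ± 19.9 CPM in ileal and 16.4 ± 12.4 CPM in proximal cells, with 82.6 CPM in neither-gate cells. *Ccnd1* (cyclin D1) had 360 ± 57.3 CPM in ileal and 132 ± 34.1 CPM in proximal cells, with 369 CPM in neither-gate cells. *Tspan1* and *Cd9*, both tetraspanins of the cell membrane, had log2 fold changes of 2.08 (SE 0.23) and 2.37 (SE 0.37), with ileal levels of 267 and 89.9 CPM and neither-gate levels of 188 and 65.2 CPM. *Scd2*, a fatty acid desaturase, had 2.13 (SE 0.29), at 221 CPM in ileal and 127 CPM in neither-gate cells. *Fgfbp1*, a carrier of fibroblast growth factors, had 1.75 (SE 0.39), at 107 CPM in ileal and 82.9 CPM in neither-gate cells.
The remaining higher genes of the naming rule were *Pglyrp1*, a peptidoglycan recognition protein of innate defence, *Noxo1*, an organizer of the NADPH oxidase NOX1, *S100a11* and *S100a16*, calcium-binding proteins, *Anxa7*, an annexin, and *Filip1l*. Their log2 fold changes were 1.42, 1.31, 1.37, 1.36, 1.35 and 1.51 in that order. Ileal levels were 122, 101.5, 91.5, 99.7, 78.9 and 84.7 CPM, and neither-gate levels were 111, 78.8, 113, 70.3, 46.3 and 75.9 CPM, so *S100a11* alone of these was lower in ileal than in neither-gate cells. *Fdps*, a synthase of farnesyl diphosphate in sterol synthesis, had 1.09 (SE 0.28, edgeR adjusted p = 0.0189) and was the only one of 10 tested sterol genes to pass, at a list median of 0.71 against 0.03 for all genes tested. It lost the call in 9 of 26 alternatives, DESeq2 among them.

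**Figure D3:**
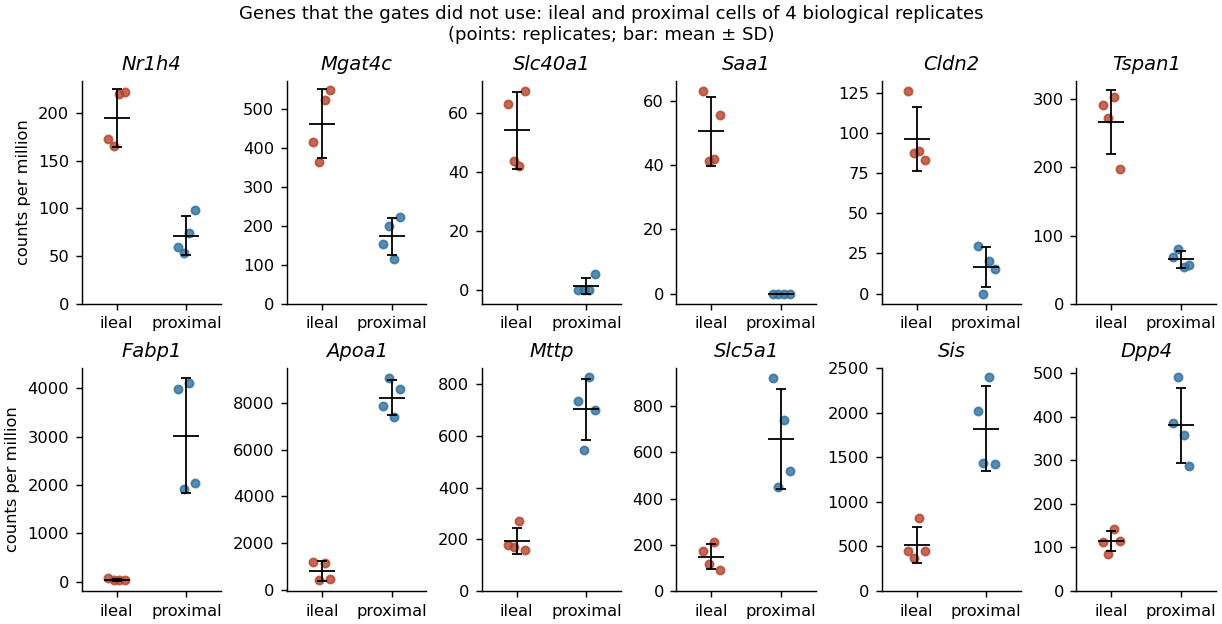
Levels in CPM (y axes) of 12 genes outside the gates in ileal and proximal cells, with 1 point per biological replicate and the mean ± SD over 4 replicates. The 12 genes were picked from the calls, and the ileal and proximal points do not overlap in any of the 12 panels. The share of such genes over all genes tested was not computed, so this is a description only.

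Genes of fat absorption were lower in ileal cells. Of 18 tested genes for lipid and retinoid absorption, 0 were higher and 15 lower, with a median log2 fold change of -1.69. *Fabp1* had 73.0 and 26.8 CPM in ileal cells of knockout replicates 1 and 2 and 39.2 and 27.8 CPM in those of flox replicates 1 and 2, against 3993, 1925, 4109 and 2053 CPM in proximal cells. It had the largest change of the named genes that fell, -6.16 (SE 0.19, edgeR adjusted p = 6.91e-13), and its ileal level was close to the 42.9 CPM of neither-gate cells. *Apoa1*, the main protein of high-density lipoprotein, fell to 824 ± 427 CPM in ileal cells, against 8224 ± 751 in proximal cells (log2 fold change -3.42, SE 0.26). *Apoc2*, the cofactor of lipoprotein lipase, had -4.34 (SE 0.51), and *Fabp2*, the intestinal fatty acid binding protein, had -2.83 (SE 0.19). *Mttp*, which loads lipid onto apolipoprotein B, fell to 194 ± 51.0 CPM, against 703 ± 118 CPM in proximal cells. *Rdh7*, a retinol dehydrogenase, had -3.22 (SE 0.41), and *Asah2*, a neutral ceramidase of the brush border, had -3.84 (SE 0.31).

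Sugar, peptide and amino acid genes moved the same way. All 7 tested genes for sugar digestion and uptake were lower, among them *Slc5a1* (SGLT1, the sodium-glucose cotransporter) at 148 ± 54.4 CPM in ileal and 659 ± 216 CPM in proximal cells. Another of the 7, *Slc2a2*, had 0 counts in ileal cells and entered the test through the proximal sums alone. Its call had to fall on the lower side and gives no support to the count. *Sis*, the sucrase-isomaltase, was at 518 ± 204 CPM in ileal and 1819 ± 476 CPM in proximal cells. Of 14 peptidases, 1 was higher and 8 lower. *Mme* (neprilysin) had a log2 fold change of -4.05 (SE 0.51), and *Dpp4*, a dipeptidyl peptidase, had -1.69 (SE 0.22). The higher one was *Mep1a*, a subunit of the metalloprotease meprin, named after its values were seen, at 131 CPM in the ileal and 66.3 CPM in the proximal sum over all replicates (log2 fold change 1.07, SE 0.30, edgeR adjusted p = 0.032).
Of 11 amino acid and peptide transporters, 1 was higher and 5 lower. *Slc6a19*, the neutral amino acid transporter B0AT1, fell by 3.66 on the log2 scale (SE 0.44), and *Slc15a1*, the peptide transporter PEPT1, fell by 3.74 (SE 0.65). *Slc1a1*, a glutamate transporter named after its values were seen, was higher by 1.23 (SE 0.36, edgeR adjusted p = 0.0384). *Pdzk1*, a scaffold of apical transporters, had -3.69 (SE 0.51).

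Enzymes of xenobiotic metabolism were lower in 16 of 21 tested genes and higher in 0, at a median log2 fold change of -1.96. One of the 16, *Cyp2c66*, had 0 counts in ileal cells and entered the test through the proximal sums alone, so its direction was fixed. Others scarce in ileal cells, such as *Adh1* with 28 ileal counts, may be of the same kind, which was not counted. *Gstm3*, a glutathione transferase, had -3.77 (SE 0.36), *Cyp3a25* -3.49 (SE 0.49) and *Cyp3a13* -1.54 (SE 0.20), both cytochromes P450. *Cyp4v3*, another cytochrome P450, had -2.85 (SE 0.32). *Adh1*, an alcohol dehydrogenase, had -2.71 (SE 0.40), with 1 cell giving 53.6% of its 28 ileal counts. *Ckb*, the brain-type creatine kinase, had -3.19 (SE 0.29), and *Fam213a*, a peroxiredoxin-like protein, had -3.40 (SE 0.30). On the list of proximal enterocyte genes, 0 were higher and 35 of 38 tested were lower, at a median of -1.84, a direction that the proximal gate favours by its construction. Its calls include those of *Slc2a2* and *Cyp2c66*, whose direction was fixed as described.

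The list of distal enterocyte genes holds all 6 ileal gate genes, which were removed before the test. Those genes had higher CPM in ileal than in proximal cells, as the gate favours by its construction. The tested rest of the list did not rise as a group against proximal cells. Of its 29 tested members, 1 was higher and 5 lower, with 7 above 0 and a median of -0.38. The higher member was *Mep1a*, and the lower ones were *Maf*, *Slc34a2*, *Anpep*, *Aoc1*, a diamine oxidase, and *Crip1*, the last named after its values were seen. *Maf*, a transcription factor of differentiated enterocytes, fell to 315 ± 84.5 CPM in ileal cells, against 705 ± 156 CPM in proximal cells, and neither-gate cells had 78.7 CPM. *Slc34a2*, a phosphate transporter, fell to 62.4 ± 38.01 CPM, against 171 ± 68.7 CPM, and *Anpep*, an aminopeptidase of the brush border, to 240 ± 126 CPM, against 456 ± 68.9 CPM. Among ileal cells with *Fabp6* above 0.2% of counts, *Slc34a2* and *Anpep* no longer passed and *Maf* did.
Of 15 brush border structure genes, 0 were higher and 8 lower (median -0.60), with *Vil1* (villin) at 502 ± 116 CPM in ileal and 813 ± 93.4 CPM in proximal cells. *Krt20* did not pass (log2 fold change -0.39, SE 0.15, edgeR adjusted p = 0.12), and its value was 0.02 among cells above 0.2% *Fabp6*. The summed level of 10 enterocyte markers ranged from 2978 to 6965 CPM over the 6 collections in ileal cells and from 11340 to 13031 CPM in proximal cells. That level moved with the differences above, and its part in them was not tested.

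Segment and defence genes gave mixed counts. Of 9 tested transcription factors of gut segments, *Nr1h4* was higher, and *Maf* and *Tbx3*, a T-box factor, were lower, with *Tbx3* losing the call in 15 of 26 alternatives. *Cdx1*, a hindgut homeobox factor, had a log2 fold change of 0.71 (SE 0.23) and did not pass (edgeR adjusted p = 0.0666). Of 16 barrier defence genes, 3 were higher and 3 lower, with a median of 0.39 both with the fitted value of *Saa1* and with its bound. *Saa1*, *Duoxa2* and *Reg3g* were the higher ones and *Reg3a*, *Gsdmd* and *Muc13* the lower ones, with *Reg3g* and *Muc13*, an antibacterial lectin and a membrane mucin, named after their values were seen. The call of *Saa1* is of the kind described above and gives no support to the count. *Reg3g* was at 15180 CPM in the ileal and 8968 CPM in the proximal sum over all replicates. *Reg3a*, a C-type lectin, fell to 82.7 ± 20.02 CPM in ileal cells, against 305 ± 32.1 in proximal cells. *Gsdmd*, the pore-forming gasdermin D, had -1.16 (SE 0.24). *Fth1*, the ferritin heavy chain that stores iron, had -0.66 (SE 0.12) and was, beside *Slc40a1*, whose call is of the same kind as that of *Saa1*, the other of 8 iron and calcium genes to pass.
Of 3 tested genes of cobalamin uptake, which is a classical task of the ileum, 0 passed, with *Tcn2* (transcobalamin) at -0.88 (SE 0.28, edgeR adjusted p = 0.0619). Of 7 MHC class II genes, 0 passed, and *H2-DMa*, which helps to load peptides, was at 0.90 (SE 0.30, edgeR adjusted p = 0.0712). Of 3 prostaglandin genes, 0 passed, with *Hpgd*, the enzyme that degrades prostaglandins, at -0.82 (SE 0.26, edgeR adjusted p = 0.0639).

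Genes linked to dividing cells and to the handling of tissue were compared as well. Of 9 cycling genes, 0 passed, with *Mki67* at 291 ± 100 CPM in ileal and 128 ± 78.0 CPM in proximal cells (edgeR adjusted p = 0.0601). Of 16 genes of dissociation stress, 0 were higher and 5 lower, and of 7 cAMP-responsive genes, 0 were higher and 5 lower, with *Fos*, *Fosb*, *Atf3* and *Dusp1* on both lists. *Areg* (amphiregulin, a ligand of the EGF receptor) fell to 278 ± 87.6 CPM in ileal cells, against 1697 ± 283 in proximal cells (log2 fold change -2.62, SE 0.15, edgeR adjusted p = 1.06e-08). *Atf3*, a stress-induced transcription factor, fell to 427 ± 165 CPM, against 998 ± 278 CPM. Of 7 tested goblet markers, 1 was higher, the lectin *Zg16*, named after its values were seen, at 2568 CPM in the ileal and 1149 CPM in the proximal sum, with 4723 CPM in neither-gate cells. All 7 goblet values were above 0, at a median of 0.78, and the summed goblet level ranged from 3520 to 22935 CPM over collections in ileal cells and from 1204 to 13651 CPM in proximal cells.

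**Figure D4:**
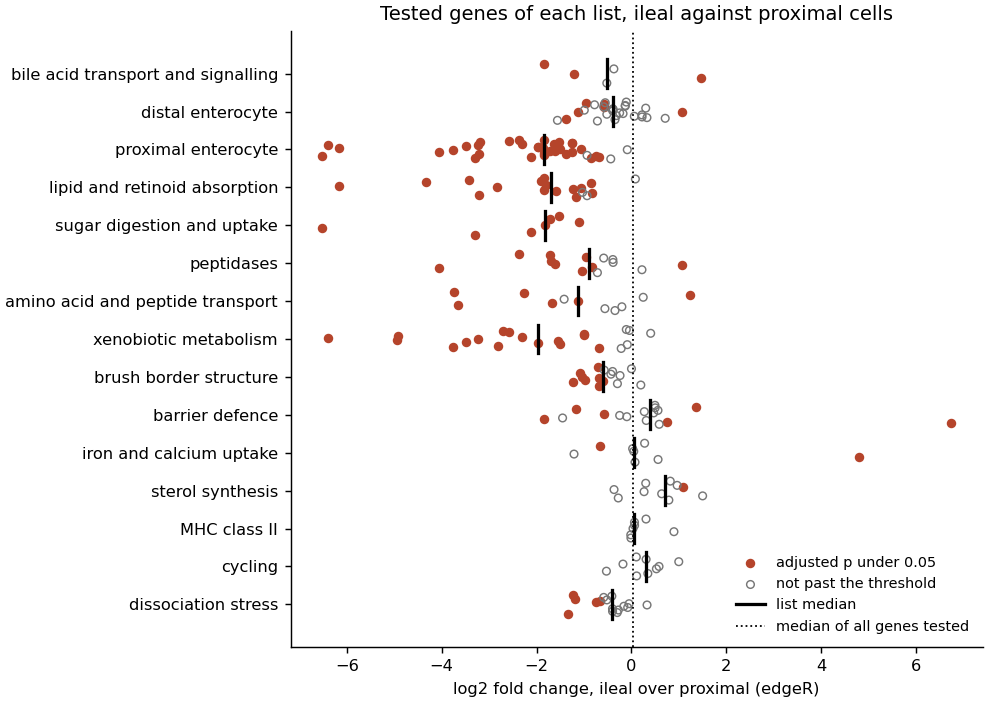
Log2 fold changes of ileal over proximal cells (x axis) for the tested genes of 15 lists (rows), filled where edgeR's adjusted p was under 0.05, with the list median as a bar and the median of all genes tested, 0.03, as a dotted line. Proximal enterocyte, lipid, sugar and xenobiotic genes have medians of -1.84, -1.69, -1.82 and -1.96, and barrier defence, sterol synthesis and cycling genes have medians right of it. The filled points of *Saa1* and *Slc40a1* are genes that entered the test through the ileal sums alone. Those of *Slc2a2* and *Cyp2c66* entered through the proximal sums alone. Other points may be of either kind, which was not counted.

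The share of ileal cells among kept cells, both gates included, was 7.76% and 8.05% in knockout replicates 1 and 2 (113 of 1457 and 79 of 981 cells) and 7.54% and 7.02% in flox replicates 1 and 2 (115 of 1526 and 65 of 926). The exact Clopper-Pearson intervals overlapped, spanning 6.43 to 9.94% over the knockout and 5.46 to 8.98% over the flox replicates. The difference was 0.627 percentage points (7.90 ± 0.21 in knockout, 7.28 ± 0.37 in flox, SD, n = 2 each, exact two-sided permutation p = 0.3333, the smallest that 2 against 2 allows). Over collections it was 0.424 points, given without a test since collections 1 and 2 share a replicate. It was -0.445 points with 4 or more gate genes, 2.73 points with 2 or more (18.9% in knockout, 16.2% in flox) and 2.27 points with 600 genes per barcode. The replicates did not overlap in the last 2, nor in the difference of 0.627 points. Each of these had the smallest permutation p that 2 against 2 allows. Within set A the share was 8.36% in knockout and 7.54% in flox, and within set B it was 7.66% in knockout and 7.02% in flox.

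The gate genes are given by genotype as a description. In ileal cells, *Fabp6* was at 21346, 27710 and 17693 CPM for knockout collections 1 to 3, against 22349, 20869 and 17255 CPM for flox collections 1 to 3. *Slc51a* had 452, 610 and 451 CPM in knockout and 608, 561 and 524 CPM in flox collections, and *Slc51b* had 480, 641 and 361 CPM in knockout and 381, 655 and 417 CPM in flox collections. *Slc13a1* had 269, 222 and 122 CPM in knockout and 237, 174 and 190 CPM in flox collections. *Slc10a2* had 40.0, 55.4 and 43.9 CPM in knockout and 71.6, 174 and 51.6 CPM in flox collections, from 80 counts in all. *Tmigd1* had 109, 206 and 122 CPM in knockout and 133, 254 and 71.4 CPM in flox collections. Over the 6 collections all 6 genes overlapped between genotypes. Over biological replicates, where collections 1 and 2 are summed, *Slc10a2* was at 46.5 and 43.9 CPM in knockout and 91.6 and 51.6 CPM in flox, and *Slc51a* was at 518 and 451 CPM in knockout and 599 and 524 CPM in flox. These 2 genes did not overlap over replicates, and the other 4 did. With 2 against 2 replicates the smallest exact two-sided permutation p is 0.3333, so such a separation cannot show a genotype difference. The share of separated genes over all genes was not computed. In cells of neither gate, *Fabp6* had 2229, 2263 and 1991 CPM in knockout and 1345, 1049 and 1070 CPM in flox collections. These do not overlap, but collections 1 and 2 share a replicate, so the same limit holds.
*Ptger4* itself had 16 counts in the ileal cells. Knockout collections 1 to 3 gave 0, 0 and 17.1 CPM, and flox collections gave 16.3, 26.7 and 7.94 CPM, which overlap. The deleted exons are not known here, so these 3′ counts do not check the labels.

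One gene passed between genotypes within ileal cells in the fit without a replicate block, the metallothionein *Mt1*, which binds zinc and copper. *Mt1* lies at chr8:94179082-94180327 on the plus strand (mm10, GENCODE vM21). Its level was 1578, 1932 and 1893 CPM for knockout collections 1 to 3, against 325, 361 and 429 CPM for flox collections 1 to 3. Every knockout value was above every flox value. Over 2 biological replicates each, the log2 fold change came to 2.302 with an SE of 0.23 (edgeR adjusted p = 0.00115). It was the only call among 4800 genes tested (0.0208%), with 163 genes at an unadjusted p under 0.05 and 1 call with DESeq2. The call was lost without flox biological replicate 2 (log2 fold change 2.49, edgeR adjusted p = 0.394), and 0 genes passed there. The change was 2.29 within set A and 2.18 within set B, where no test was made.
Differences in *Mt1* with the same sign were measured in the other cells. Proximal cells had 2208, 1827 and 2509 CPM in knockout collections and 428, 122 and 780 CPM in flox collections (log2 fold change 1.99, SE 0.31, edgeR adjusted p = 0.187). Cells of neither gate had 957, 965 and 1069 CPM in knockout collections and 225, 218 and 226 CPM in flox collections. The *Mt1* effect in ileal minus that in proximal cells was 0.20 (SE 0.30, edgeR adjusted p = 1). *Mt2*, the neighbouring metallothionein, had 36.5 and 134 CPM in knockout replicates 1 and 2 and 47.1 and 51.6 CPM in flox replicates 1 and 2 of ileal cells (log2 fold change 0.88, SE 0.49, edgeR adjusted p = 0.999).

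**Figure D5:**
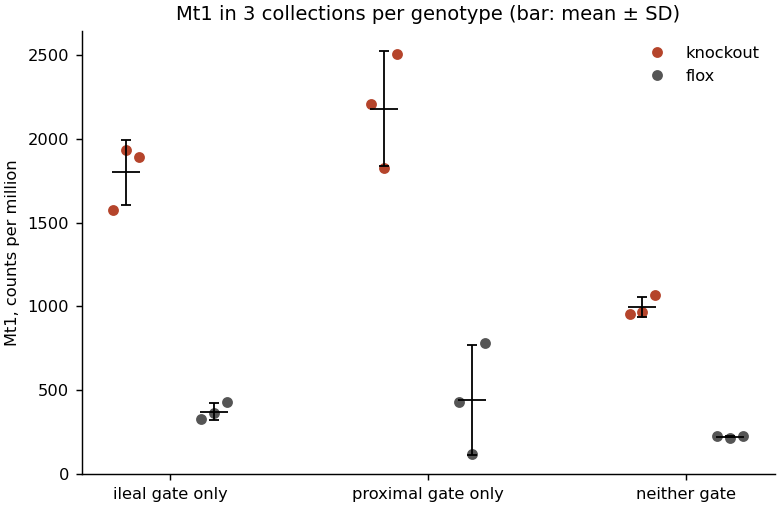
*Mt1* in CPM (y axis, from 0) in knockout (red) and flox (grey) collections for cells of the ileal gate alone, the proximal gate alone and neither gate, with 1 point per collection and the mean ± SD over 3 collections. Knockout points lie above flox points in each of the 3 cell groups.

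The genes next in order of p did not pass without a replicate block, but some passed with it. With biological replicate as a block, edgeR called 35 genes, 34 higher and 1 lower. *Wdr89*, *Vaultrc5*, *Psme2b*, *Sec61g*, *Nme2* and *Defa24* were among them, with edgeR adjusted p-values of 0.00162, 0.00379, 0.00121, 0.00657, 0.0230 and 0.0171. Replicate 2 held *Xist* RNA in both genotypes and replicate 1 did not, so the block also takes up sex. The values that follow are from the fit without it. Above 0 were *Wdr89* at 1.12 (SE 0.24), *Vaultrc5*, a vault RNA, at 1.24 (SE 0.28), *Psme2b*, a proteasome activator subunit, at 1.27 (SE 0.28), *Sec61g*, a translocon subunit, at 1.02 (SE 0.26), and *Nme2*, a nucleoside diphosphate kinase, at 1.12 (SE 0.29). Their edgeR adjusted p-values ranged from 0.356 to 0.597, and *Vaultrc5* was -0.39 within set A. Below 0 were the Paneth defensins *Defa24* at -0.89 (SE 0.23) and *Defa21* at -1.08 (SE 0.31), *Cript* at -1.19 (SE 0.34), *Ppara*, a fatty acid sensing receptor, at -1.35 (SE 0.43), *Pof1b* at -1.01 (SE 0.34) and *Lpcat3*, a phospholipid acyltransferase, at -0.82 (SE 0.29), with edgeR adjusted p-values of 0.613 to 0.999. The summed level of 9 Paneth markers was 1595, 1584 and 1099 CPM in knockout and 2183, 2807 and 2024 CPM in flox collections of ileal cells. These do not overlap, but collections 1 and 2 share a replicate. The part of the Paneth level in the defensin values was not tested.

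Of the other lists, 0 members passed between genotypes without a block. The 28 tested distal enterocyte genes had a median log2 fold change of -0.19, 26 proximal enterocyte genes -0.24, 16 lipid and retinoid genes -0.33, 12 peptidases -0.29 and 6 bile acid genes -0.53, against 0.01 for all genes tested. *Nr1h4* was at -0.34 (SE 0.26), *Abcc2* at 0.80 (SE 0.54) and *Abcg8* at -0.73 (SE 0.52), each with an edgeR adjusted p of 0.999. The 11 cAMP-responsive genes had a median of -0.11, 7 MHC class II genes -0.06, 10 cycling genes 0.10, 7 Paneth markers -0.71 and 7 goblet markers 0.60.
No gene among 4390 tested had a genotype effect that differed between ileal and proximal cells past the threshold (edgeR, 0%), with 123 at an unadjusted p under 0.05 and 0 calls with DESeq2. Leaving out knockout biological replicate 1 gave 13 such genes, leaving out knockout biological replicate 2 gave 10, and leaving out knockout collection 1 gave 2. The smallest p in each direction belonged to *Rn7sk*, the 7SK RNA that restrains transcription elongation, at 1.92 (SE 0.50), and *Pafah1b3*, a platelet-activating factor acetylhydrolase subunit, at -2.44 (SE 0.61), both with an adjusted p of 1. The *Rn7sk* value was 0.22 without flox collection 1, whose proximal cells held 1050 CPM, against 0 and 109 CPM in flox collections 2 and 3.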

How the data were processed

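Drop-seq counts of crypt cells were used from 6 collections. The authors' deposited tables hold whole-number counts per gene and barcode, not normalized, aligned with STAR 2.6 to mm10 according to the submitters' processing notes. The sources used here do not give the annotation, the UMI collapsing or the rule by which barcodes entered. Barcodes needed 300 or more genes and a mitochondrial share up to 25%, which left 4890 of 13191. Doublets were not called or removed, and no background RNA was subtracted.

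The members, gene lists and tests were chosen with earlier results of these data known. Counts were summed per biological replicate and cell group, leaving out the 97 barcodes that passed both gates. edgeR 4.0.16 tested these sums by quasi-likelihood (TMM, filterByExpr at 10 counts, Benjamini-Hochberg over all genes tested, threshold 0.05), with biological replicate as a block for ileal against proximal, none for knockout against flox, and DESeq2 as an alternative. The labels do not say which animals stand behind each replicate, so p-values measure the spread between these samples. CPM divides by all counts of the summed cells. Intervals are exact Clopper-Pearson (95%).

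Named genes were, for ileal against proximal, up to 15 per direction with the largest change, a mean of at least 50 CPM and the same direction in all 4 replicates, plus up to 4 per list by smallest p, of which a part is named. Between genotypes they were up to 10 genes that passed, filled to 6 per direction by smallest p, plus *Ptger4*, *Mt1*, *Mt2* and the gate genes. One gene is not reported here. Predicted genes were not named (13 of the ileal against proximal calls). Of 19178 symbols, 17963 (93.7%) were found in GENCODE vM21. Promoters were available for 5 of 6 gate genes, the exception being *Slc13a1*. The scripts were tested on simulated data.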

Additional observations from a re-analysis of the deposited data

How the results depend on the processing

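Depth limits the sums: the gate needs several UMIs, so shallow cells of the type are missed, and genes without about 10 counts in enough of the sums were not tested. Alternatives on shared barcodes, *Tmigd1*, *Slc10a2* or *Slc13a1*, the 0.2% *Fabp6* limit, 20000 UMIs and barcode sets were chosen after seeing the data. The causes of the shifts below were not tested, apart from fewer genes tested or fewer samples.

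The 409 calls between ileal and proximal cells became 206 with DESeq2, 190 with 2 or more gate genes, 121 in cells thinned to 500 UMIs (700 genes tested), 217 with cells of both gates kept, 115 without cells holding 3 markers of another class (1577 tested), 621 without shared barcodes, 219 with *Tmigd1*, *Slc10a2* or *Slc13a1* required, 104 within set A and 272 within set B, and ranged from 172 to 427 when 1 replicate or collection was left out. Thinned cells gave 59 higher and 62 lower (48.8% higher, against 29.1% as reported), sums per collection 179 and 249 (41.8%), and cells without other-class markers 45 and 70 (39.1%). DESeq2, both gates kept and 2 or more gate genes gave 14.1%, 17.5% and 18.9% higher. Without a filter the median of all genes was 0.22.

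The 1 call between genotypes became 12 without a filter, 12 with 2 or more gate genes, 5 with *Fabp6* above 0.2% and 0 to 37 with 1 replicate or collection left out. The replicate block over biological replicates gave 35 calls. Deviations of same-numbered replicates from their genotype means correlated at 0.31. With 2 replicates per genotype these deviations mirror each other, so this is 1 value and too little to call the numbers paired. Sex differs by number in both genotypes. Collection numbers correlated at -0.24, 0.06 and 0.45 and gave 1 call as a block. The interaction gave 1 call without a filter and 0 to 13 with 1 left out. The *Mt1* call was lost in 2 of 27 tested alternatives, both being the same removal of flox replicate 2, which left 1 flox replicate. The fits within sets A and B had no test and kept the sign.

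The share difference was 2.73 points with 2 or more gate genes, 2.27 with 600 genes per barcode, -0.445 points with 4 or more gate genes, -0.0703 in cells thinned to 500 UMIs and -0.135 with *Tmigd1*, *Slc10a2* or *Slc13a1*. *Krt20* was 0.0279 without other-class cells and 0.0186 above 0.2% *Fabp6*. Between genotypes, *Vaultrc5* was -0.39 within set A, *Sec61g* -0.0341 and *Defa24* 0.0245 without other-class cells, and *Mt2* -0.309 to 1.42 with 1 left out. In the interaction *Rn7sk* was -1.16 with 2 or more gate genes and *Mt1* ranged from -0.164 to 0.574 with 1 left out, where a lone sample is taken to vary like the others. Of the named calls between ileal and proximal cells, 0 reversed, and 24 of 52 lost the threshold at least once, in 142 recomputations, against 1192 that kept it. The 52 include *Saa1*, *Slc40a1* and *Cldn2*, whose calls had to fall on the higher side. Others whose direction was fixed by the filter were not counted. Each removal of a replicate 2 is counted a second time as the removal of collection 3, its only collection.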
